A study of Arabidopsis thaliana with 21 samples.

Results

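The JAZ (JASMONATE ZIM-DOMAIN) repressors of Arabidopsis thaliana were followed through 7 petiole-feeding groups. The members were the rows of the expression table with the locus IDs of 10 JAZ genes: JAZ1 (AT1G19180), JAZ2 (AT1G74950), JAZ3 (AT3G17860), JAZ5 (AT1G17380), JAZ6 (AT1G72450), JAZ7 (AT2G34600), JAZ8 (AT1G30135), JAZ9 (AT1G70700), JAZ10 (AT5G13220) and JAZ12 (AT5G20900). They were chosen by identity, and all 10 of the 21156 loci in the table had a value in every library and were among the 17794 loci that passed the expression filter. The data were polyadenylated RNA libraries of excised leaves from 35 day old Col-0 Ler F1 hybrid plants, so every library carries both parental genomes. Each of 7 groups had 3 libraries: infiltration buffer alone (control), ATP at 1 mM, PAP (3'-phosphoadenosine 5'-phosphate, a chloroplast stress signal) at 100 µM, LiCl (an inhibitor of the phosphatase that breaks PAP down) at 100 mM, PAP + LiCl, PAP + ATP, and PAP + ATP + LiCl. All solutions were in the same buffer and entered through the cut petiole, so every group, the control included, was wounded and fed. No group received ATP + LiCl without PAP, and none received another salt, so the parts of lithium, chloride and osmotic strength in a LiCl effect cannot be told apart. The labels do not say whether the 3 libraries of a group came from separate plants, so p-values measure only the spread between libraries. The PAP dose is the one on the sample labels, and the treatment notes give other doses, so it is uncertain. The feeding time is not given in the sources used here. Libraries are numbered 1 to 21 by column.

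JAZ proteins hold jasmonate responses in check. They bind the transcription factor MYC2 and its relatives and, through the adaptor NINJA or through their own EAR motif, bring in the co-repressor TOPLESS (TPL). When the hormone jasmonoyl-isoleucine rises, as it does in a wounded leaf, it joins JAZ proteins to the F-box receptor COI1, the JAZ proteins are degraded and MYC2 is freed. Most JAZ genes are themselves MYC2 targets, so their transcripts mark the response and refill the repressor pool. Transcript levels do not give protein levels for these short-lived proteins.

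MYC2 binds the G-box CACGTG and related hexamers such as CACATG and AACGTG, so the start-proximal promoters were searched for these 3 words on both strands. The promoters shown are those of JAZ2, which was higher with LiCl in the data below, and of 2 pairs of related genes that diverged with LiCl, JAZ3 with JAZ9 and JAZ5 with JAZ6. Each sequence is the 250 bases before the annotated start of the RefSeq TAIR10.1 gene, read in the direction of the gene, with matched hexamers in capitals (a match on the opposite strand appears as CATGTG or CACGTT).
JAZ2: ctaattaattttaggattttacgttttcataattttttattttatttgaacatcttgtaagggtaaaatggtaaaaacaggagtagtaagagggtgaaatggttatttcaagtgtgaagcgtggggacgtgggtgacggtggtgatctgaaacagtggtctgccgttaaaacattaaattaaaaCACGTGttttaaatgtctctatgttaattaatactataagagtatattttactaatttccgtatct
JAZ3: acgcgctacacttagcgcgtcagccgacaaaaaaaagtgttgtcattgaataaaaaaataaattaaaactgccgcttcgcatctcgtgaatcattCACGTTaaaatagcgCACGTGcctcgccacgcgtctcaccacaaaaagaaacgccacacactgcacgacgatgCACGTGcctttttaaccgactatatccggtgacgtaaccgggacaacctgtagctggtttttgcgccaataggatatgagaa
JAZ9: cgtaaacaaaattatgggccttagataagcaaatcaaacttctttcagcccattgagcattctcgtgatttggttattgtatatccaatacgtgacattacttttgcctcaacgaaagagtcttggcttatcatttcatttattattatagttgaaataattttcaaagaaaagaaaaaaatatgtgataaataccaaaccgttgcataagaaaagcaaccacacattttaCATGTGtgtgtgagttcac
JAZ5: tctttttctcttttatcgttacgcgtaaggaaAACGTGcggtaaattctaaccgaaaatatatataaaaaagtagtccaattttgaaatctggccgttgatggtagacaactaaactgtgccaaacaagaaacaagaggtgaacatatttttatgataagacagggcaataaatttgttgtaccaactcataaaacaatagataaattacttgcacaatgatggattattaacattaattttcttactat
JAZ6: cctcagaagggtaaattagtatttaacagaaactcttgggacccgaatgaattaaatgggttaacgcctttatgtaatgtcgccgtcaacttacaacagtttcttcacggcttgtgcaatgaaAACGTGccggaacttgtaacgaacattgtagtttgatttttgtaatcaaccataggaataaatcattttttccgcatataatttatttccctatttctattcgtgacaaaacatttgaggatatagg
These lie at chr1:28150447-28150696 on the minus strand for JAZ2, chr3:6119457-6119706 on the plus strand for JAZ3, chr1:26654279-26654528 on the plus strand for JAZ9, chr1:5957512-5957761 on the minus strand for JAZ5, and chr1:27276563-27276812 on the minus strand for JAZ6. The deposited table gives locus IDs without coordinates, and all positions here come from the reference annotation.

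JAZ3 had the palindrome CACGTG at 140 and 82 bases before its start and a reverse AACGTG at 155, and JAZ2 had CACGTG at 66. JAZ9 had a reverse CACATG at 19. JAZ5 and JAZ6 each had 1 AACGTG, at 218 and 127. Over a window from 250 bases before to 50 bases after the start, 4 of the 9 members searched held CACGTG (JAZ2, JAZ3, JAZ7 and JAZ8), against 8.95% of 20511 promoters searched the same way. CACATG was in 2 members (JAZ9 and JAZ10), against 13.0%, and AACGTG in 4 (JAZ3, JAZ5, JAZ6 and JAZ12), against 9.03%. In the 200 bases before the start the counts were 4, 2 and 3, with JAZ5 dropping out of the AACGTG count. The shares of the 20511 promoters in that window were 6.59%, 9.23% and 6.38%. The 3 words do not overlap one another at any of these positions. A match is a run of letters, and binding was not measured.

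The 10 transcripts were abundant and unequal. On a per-length scale (mean CPM, reads of a gene scaled to the library's total of reads assigned to genes, over 21 libraries divided by exon length in kilobases), JAZ9 was highest at 1262, followed by JAZ6 at 643, JAZ2 at 520.1, JAZ1 at 496, JAZ12 at 444, JAZ10 at 422 and JAZ5 at 253. JAZ7 at 126, JAZ8 at 113 and JAZ3 at 100.0 were lowest. JAZ7 and JAZ8 are the members that lack the canonical degron for COI1 and bind TPL directly. The smallest value of any member was 422 reads, for JAZ8 in library 8, so counting error was small beside the spread between libraries. Libraries held 19190821 to 27155547 reads assigned to genes.

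The leaf label was checked against marker genes. The 4 mesophyll markers summed to 19751 to 41319 CPM in the 21 libraries, 0 of 3 root markers had a value, and the 3 flower markers summed to at most 0.722 CPM. The 5 markers of epidermis and guard cells summed to 161 to 372 CPM in the 9 libraries with LiCl and 381 to 1067 CPM in the other 12. Most of that sum was CER6, a wax synthesis gene, which was called lower in all 3 LiCl comparisons (-1.52, -2.13 and -1.37), while ATML1, KAT1, MYB60 and FAMA were called in none of them. The 4 vascular markers summed to 242 to 311 CPM with LiCl and 138 to 329 CPM without, and they moved both ways. SUC2 was called higher with LiCl in buffer and with PAP (1.33 and 1.38) but not with PAP + ATP (0.27). SWEET11 and SWEET12 were called lower only in the LiCl effect averaged over these 3 settings (-0.67 and -0.99). IRX3 was called in none. In bulk leaf RNA, fewer cells of a type and less RNA per cell cannot be told apart. The part of cell composition in the JAZ results was not tested.

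**Figure D1:**
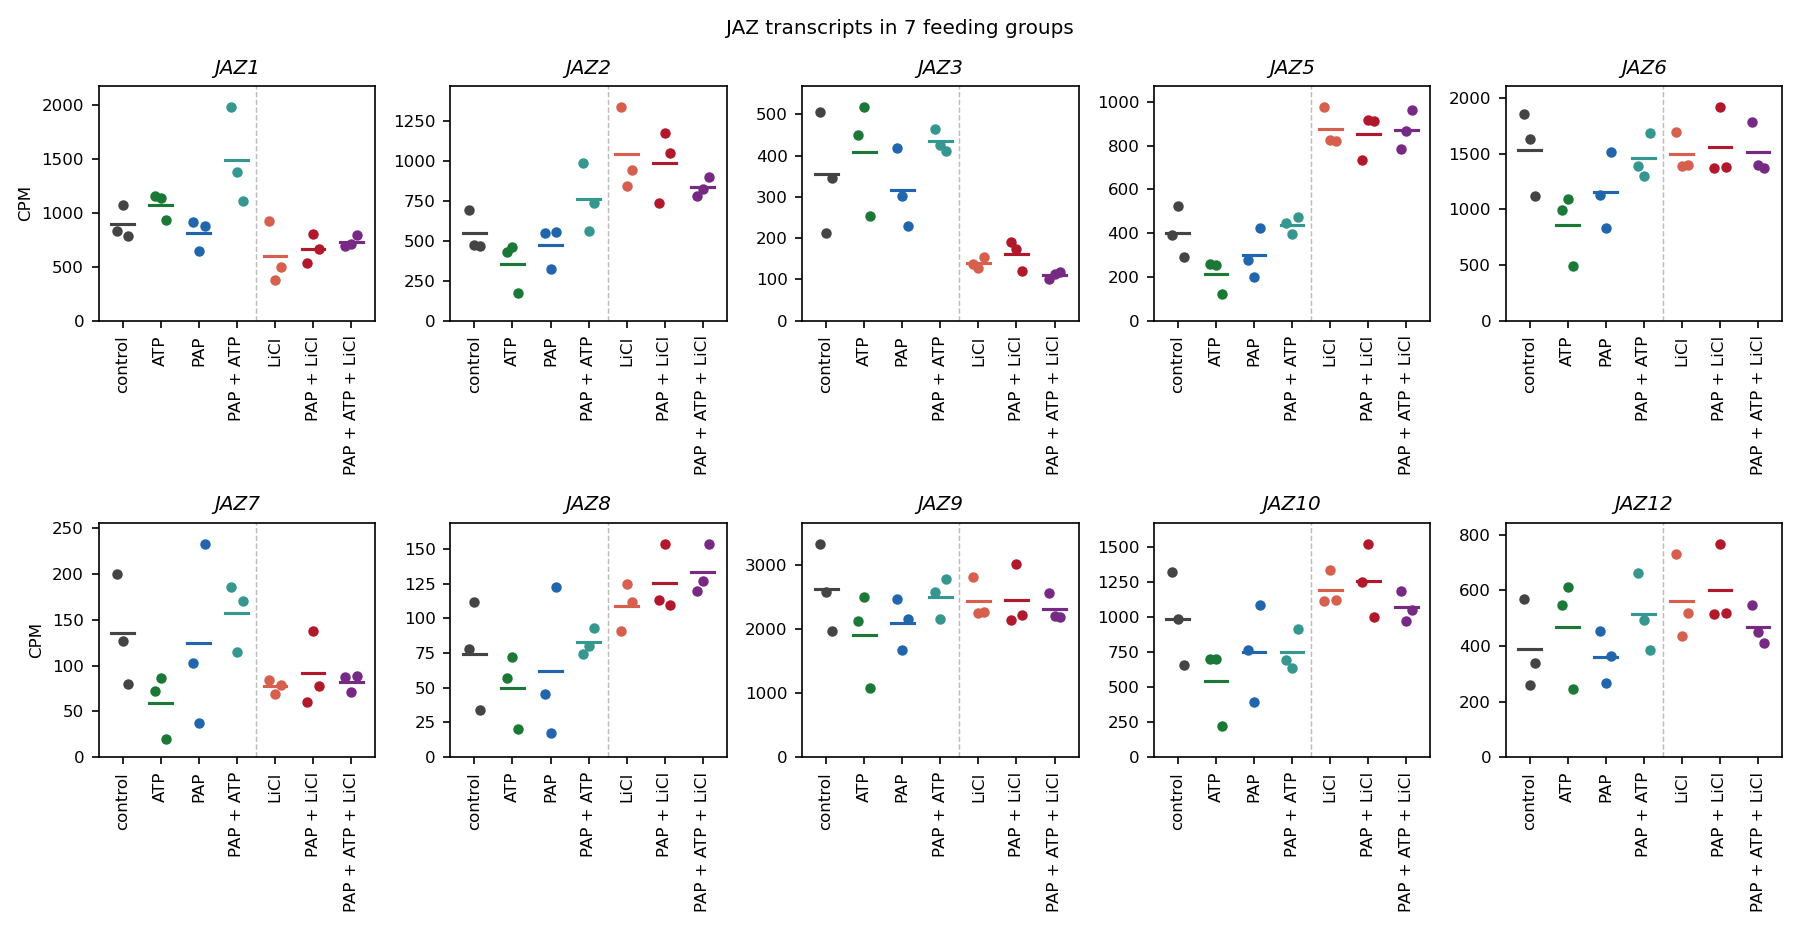
CPM of each of the 10 JAZ genes (vertical axis, linear, from 0) in every library, by feeding group. Points are libraries, bars are group means of 3, and the dashed line separates the 4 groups without LiCl from the 3 with it. In CPM, JAZ3 lies lower and JAZ5 higher in all 9 LiCl libraries than in any of the other 12. JAZ9 and JAZ6 overlap throughout.

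LiCl changed which JAZ transcripts the leaf held. JAZ5 rose and JAZ3 fell with LiCl in all 3 settings where LiCl was added, to buffer, to PAP and to PAP + ATP. JAZ2 rose with LiCl in PAP-fed leaves, and JAZ1 fell with LiCl in PAP + ATP-fed leaves. JAZ9, the most abundant member and closely related to JAZ3, and JAZ6, closely related to JAZ5, passed the test in none of the 3.

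JAZ5, which forms a closely related pair with JAZ6, stood at 393, 525 and 291 CPM in the 3 control libraries and at 976, 827 and 822 CPM with LiCl. PAP-fed leaves had 276, 199.8 and 426 CPM, and LiCl in addition brought 734, 919 and 912 CPM. Leaves fed PAP + ATP had 447, 396 and 473 CPM, and those fed all 3 compounds 787, 866 and 965 CPM. Every library with LiCl was above every library without, 734 to 976 CPM against 124 to 525 CPM. By group mean the order was LiCl, PAP + ATP + LiCl, PAP + LiCl, PAP + ATP, control, PAP and ATP, and the only neighbours in it whose libraries did not overlap were PAP + LiCl and PAP + ATP. The log2 changes on the log2(CPM + 0.5) scale were 1.15 ± 0.29 (SE, adjusted p = 0.0123) in buffer, 1.57 ± 0.29 (adjusted p = 0.00122) with PAP and 0.99 ± 0.29 (adjusted p = 0.0413) with PAP + ATP. The last of these passed neither after median-of-ratios scaling (adjusted p = 0.0815), nor after TMM scaling (0.0666), nor in edgeR (0.0636), and not without library 7, 11, 12 or any 1 of 14 to 21 (adjusted p = 0.051 to 0.145). The change in buffer missed the threshold when only control and LiCl libraries were fitted (adjusted p = 0.0578), and the change with PAP held under every alternative.

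JAZ3, the member whose dominant jai3-1 allele makes plants insensitive to jasmonate, moved the other way. It stood at 506, 214 and 345 CPM in the control libraries and at 137, 128 and 154 CPM with LiCl. PAP-fed leaves had 418, 301 and 230.2 CPM, and LiCl in addition brought 192, 175 and 120.4 CPM. Leaves fed PAP + ATP had 464, 427 and 412 CPM, and those fed all 3 compounds 101, 112 and 118 CPM. The 9 LiCl libraries spanned 101 to 192 CPM and the other 12 spanned 214 to 517 CPM, without overlap. The log2 changes were -1.26 ± 0.30 (adjusted p = 0.0086), -0.95 ± 0.30 (0.0327) and -1.97 ± 0.30 (0.000721). The first was -0.96 without control library 1 (adjusted p = 0.0547) and missed the threshold when only control and LiCl libraries were fitted (0.0675). The second passed neither after median-of-ratios or TMM scaling (adjusted p = 0.072 and 0.069) nor in edgeR (0.064), nor with only its own groups fitted (0.0626), nor without library 7, 8, 14 or 15 (0.0568 to 0.15). The third kept its call under every alternative and with each library left out.

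Among all genes, 919 of 17440 (5.27%) had LiCl and other libraries that did not overlap in CPM, as for JAZ3 and JAZ5. Of genes tested in all 3 LiCl comparisons, 2.4% rose in each, JAZ5 among them, and 2.96% fell in each, JAZ3 among them. These 3 comparisons share no library, but they share 1 estimate of the spread.

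JAZ2, which is expressed in guard cells and takes part in stomatal immunity, stood at 696, 475 and 469 CPM in control libraries and at 1336, 847 and 946 CPM with LiCl. In PAP-fed leaves it went from 548, 323 and 558 CPM to 735, 1177 and 1048 CPM with LiCl. With PAP + ATP it was already at 991, 563 and 735 CPM, and LiCl libraries of that set, at 780.3, 828 and 901 CPM, lay inside that range. Only the change in PAP-fed leaves passed (log2 1.07 ± 0.34, adjusted p = 0.0338), and the value with LiCl alone was 0.93 ± 0.34 (adjusted p = 0.07). The call in PAP-fed leaves was lost without PAP library 8 (0.81, adjusted p = 0.133), without PAP + LiCl library 14 (0.93, adjusted p = 0.115) and without library 15 (1.01, adjusted p = 0.102), and it was at 0.0502 with only its own groups fitted.

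JAZ1, one of the first members shown to be degraded through COI1, had lower group means in all 3 LiCl groups than in the other 4. It stood at 834, 1071 and 779 CPM in control libraries and at 921, 378 and 500.1 CPM with LiCl, which overlap. PAP-fed leaves had 914, 647 and 879.7 CPM, and LiCl in addition brought 536, 801 and 660.1 CPM, which also overlap. Neither change was called. PAP + ATP gave its highest group, 1975, 1379 and 1105 CPM, and adding LiCl gave 688, 713 and 796 CPM, without overlap. That fall passed (log2 -0.98 ± 0.29, adjusted p = 0.0395), and it was -0.76 (adjusted p = 0.172) without library 16, the highest of the PAP + ATP set. It was also above the threshold without library 15, 17, 19, 20 or 21 (adjusted p = 0.0508 to 0.123) and with only its own groups fitted (0.06).

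Counted by comparison, 2 of 10 members were called with LiCl against control, where 17.6% of all genes were (7.27% higher, 10.4% lower). In PAP-fed leaves 3 of 10 were called, against 21.6% (9.67% higher, 12.0% lower), and in PAP + ATP-fed leaves 3 of 10, against 9.44% (4.6% higher, 4.84% lower). These shares of 10 genes do not set the family apart in number. In edgeR 2, 2 and 2 members were called, and in DESeq2 2, 3 and 3. The median change of the 10 was 0.16 against control, 0.60 in PAP-fed leaves and -0.02 in PAP + ATP-fed leaves, beside -0.03, -0.02 and 0.07 over all genes. These medians rested on single libraries: the first was 0.35 without control library 1 and -0.08 without control library 3, the second was 0.34 without PAP library 8, and the third ran from -0.12 to 0.07 as each library was left out. Calls ran both ways in each comparison, and 5, 7 and 5 of the 10 values were positive.

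**Figure D2:**
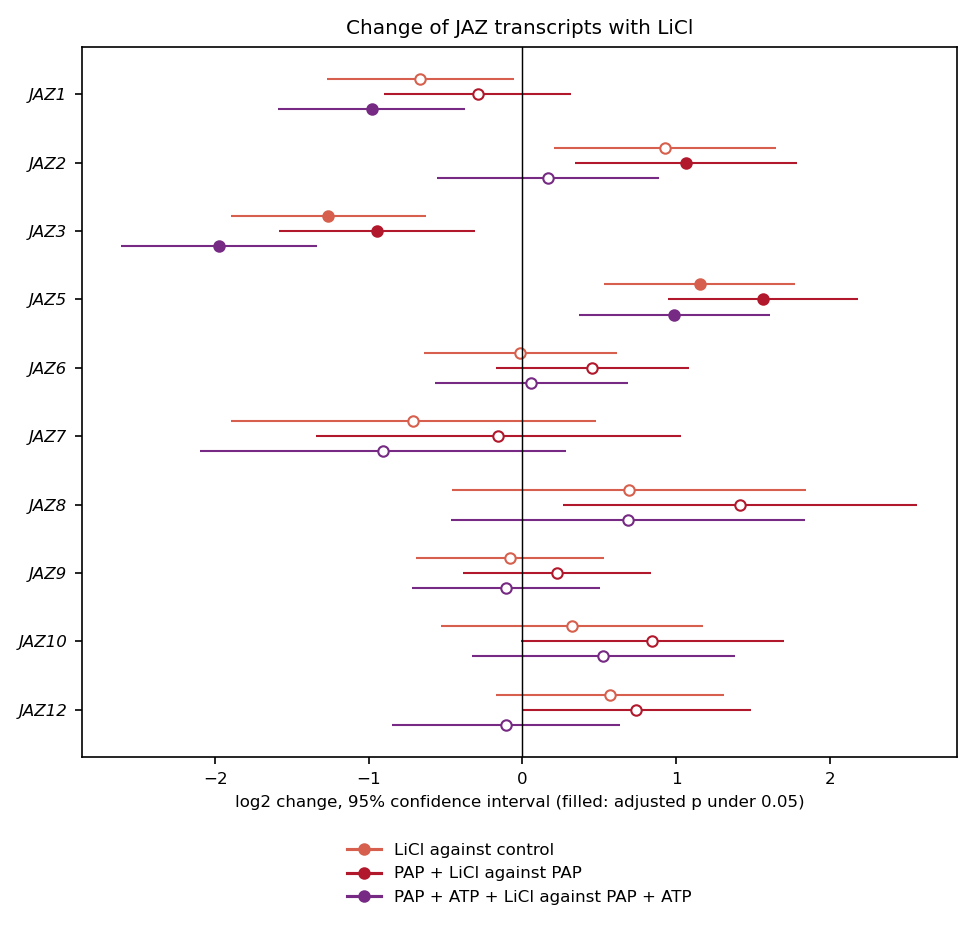
Log2 change of each JAZ gene with LiCl (horizontal axis, limma estimate with 95% confidence interval) in buffer, PAP-fed and PAP + ATP-fed leaves. Filled points have an adjusted p under 0.05, and JAZ3 and JAZ5 are filled in all 3 comparisons on opposite sides of 0.

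The mean LiCl effect over the 3 settings, which uses all 18 libraries of those comparisons, narrowed the errors. On this measure 3 members rose, JAZ5 (log2 1.24 ± 0.17, adjusted p = 2.1e-05), JAZ2 (0.72 ± 0.20, adjusted p = 0.00751) and JAZ8 (0.93 ± 0.32, adjusted p = 0.0252). JAZ3 (-1.39 ± 0.17, adjusted p = 8.6e-06) and JAZ1 (-0.65 ± 0.17, adjusted p = 0.005) fell. The 5 of 10 called stand beside 41.6% of all genes, 20.1% higher and 21.5% lower. JAZ8 was at 91.0 to 154 CPM in the LiCl libraries and 17.5 to 123 CPM in the others, and its call was lost in edgeR (adjusted p = 0.0627) and without control library 3 (0.77, adjusted p = 0.0511).

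The 5 members not called had pooled changes of 0.57 ± 0.23 for JAZ10 (adjusted p = 0.0608), 0.40 ± 0.20 for JAZ12 (0.122), 0.17 ± 0.17 for JAZ6 (0.462), 0.01 ± 0.17 for JAZ9 (0.961) and -0.59 ± 0.33 for JAZ7 (0.157). JAZ10, known for splice forms that resist degradation, stood at 969 to 1522 CPM with LiCl and 221 to 1319 CPM without. JAZ9, a partner of MYC2 and of DELLA proteins, stood at 2144 to 3021 CPM with LiCl and 1082 to 3336 CPM without. The 95% interval of the pooled JAZ9 change ran from -0.34 to 0.37. JAZ6 stood at 1369.7 to 1915 CPM with LiCl and 489 to 1852 CPM without, JAZ7 at 60.1 to 138 and 19.7 to 233 CPM, and JAZ12, which the ubiquitin ligase KEG keeps stable, at 409.6 to 767 and 246 to 661 CPM. All 5 overlapped between libraries with and without LiCl. None of the interactions was called for any member: LiCl with PAP and, in PAP-fed leaves, LiCl with ATP each gave 0 of 10 in limma, edgeR and DESeq2, with 0 and 1 member (JAZ3, adjusted p = 0.544) at an unadjusted p under 0.05. Of all genes, 1.82% and 8.65% had an unadjusted p under 0.05 in these 2 interactions, and 0.0% and 0.0285% were called.

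Because related JAZ genes moved apart, the ratio of each pair was taken inside each library, where library scaling cancels. This comparison of 5 pairs was chosen after the values were seen. The change of the log2 ratio with LiCl, averaged over the 3 settings, is therefore given as a description, with no test.

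The log2 ratio of JAZ2 to JAZ1 was -0.72 ± 0.46 (SD, n = 3) in control, -0.80 ± 0.18 with PAP and -0.96 ± 0.35 with PAP + ATP. With LiCl added to each, it was 0.87 ± 0.32, 0.56 ± 0.11 and 0.19 ± 0.02, so JAZ1 was the larger read count in every library without LiCl and JAZ2 in every library with it. The mean change was 1.37. JAZ5 to JAZ6 went from -1.94, -1.97 and -1.73 to -0.77, -0.85 and -0.79, a mean change of 1.07.

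JAZ8 to JAZ7 changed by 1.53, from group means between -1.07 and -0.91 in the 3 matched settings to between 0.49 and 0.69 with LiCl. JAZ9 to JAZ3 changed by 1.41, with 1.18 in buffer, 1.18 with PAP and 1.87 with PAP + ATP. JAZ12 to JAZ11 changed by 0.97, but by 0.34 in the PAP + ATP setting, where the ranges overlapped. Leaving out any 1 of 18 libraries kept the means at 1.29 to 1.45, 1.02 to 1.14, 1.46 to 1.66, 1.34 to 1.52 and 0.88 to 1.09.

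**Figure D3:**
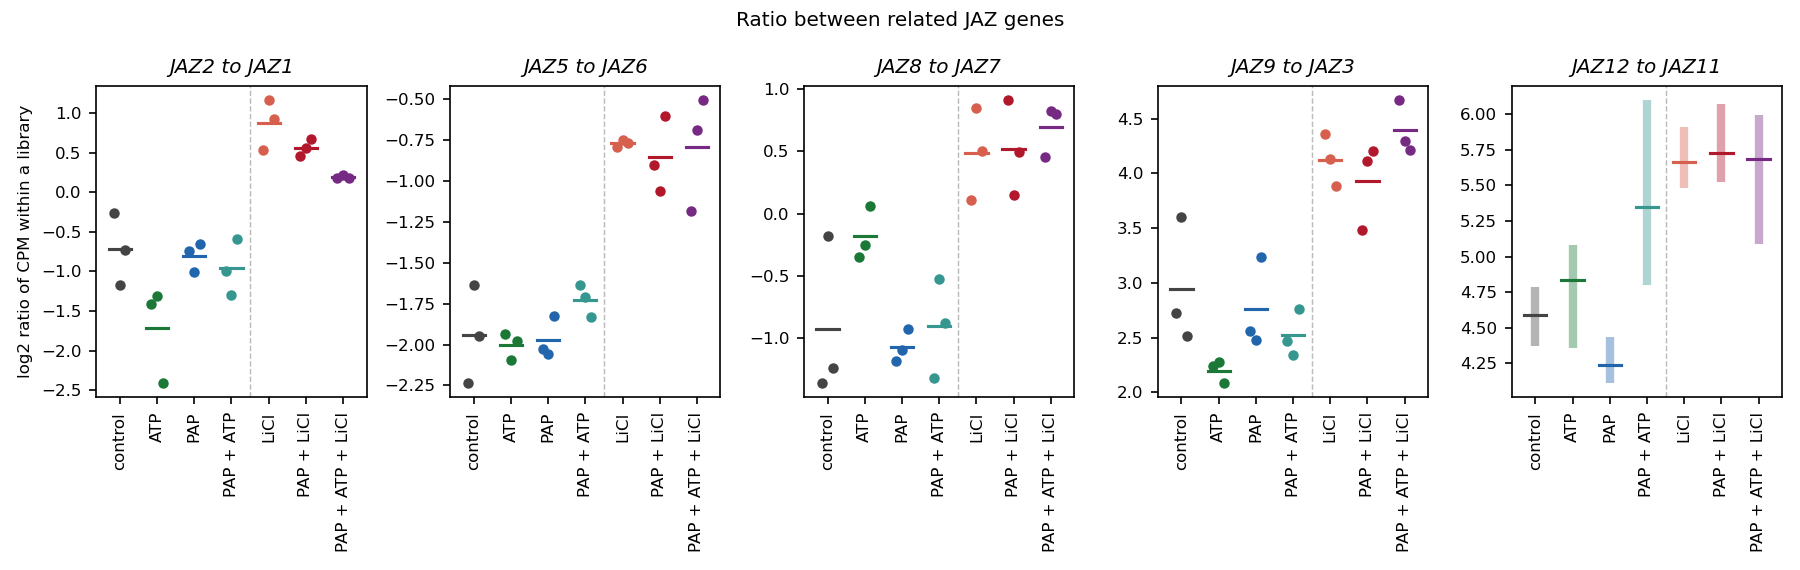
Log2 ratio of CPM within a library for 5 pairs of related JAZ genes (vertical axis, own scale in each panel) by feeding group. Points are libraries and bars are means of 3, and for JAZ12 to JAZ11 a thick line gives the range of 3 libraries. In the panels of JAZ2 to JAZ1, JAZ5 to JAZ6 and JAZ8 to JAZ7 every LiCl library lies above every library without LiCl. For JAZ8 to JAZ7 the margin is small, with a lowest value of 0.11 with LiCl and a highest of 0.06 without.

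Both the sum of the 10 transcripts and its make-up varied between groups. The sum was 7950.1 ± 1853 CPM (SD, n = 3) in control, 5928 ± 2075 with ATP, 6462 ± 1545 with PAP, 8589 ± 969 with PAP + ATP, 8533 ± 1184 with LiCl, 8767 ± 1589 with PAP + LiCl and 8143 ± 462 with all 3. The control libraries, at 6078 to 9783 CPM, overlapped every other group. The ATP and PAP libraries, at 3561 to 7429 and 4698 to 7575 CPM, lay below all 9 LiCl libraries, whose lowest sum was 7656 CPM. This order is in CPM scaled to library totals. Median-of-ratios and TMM factors were 0.83 and 0.85 for ATP library 5, and 0.995 and 0.997 for PAP library 9. They were 1.09 and 1.07 for PAP + ATP + LiCl library 21. Division by either set makes both the ATP and the PAP sums overlap those with LiCl. The PAP + ATP libraries, at 7543 to 9458 CPM and also without LiCl, overlapped the LiCl libraries. No test of the sum was made. JAZ5 made up 5.13% ± 1.31 of the sum in control and 10.3% ± 0.392 with LiCl, JAZ2 6.92% ± 0.90 and 12.1% ± 1.32, JAZ1 11.6% ± 2.67 and 6.83% ± 2.27, and JAZ3 4.51% ± 1.61 and 1.66% ± 0.279. JAZ9 had the largest mean share in all 7 groups, at 33.0% ± 0.987 in control and 28.6% ± 0.212 with LiCl. Shares are of read counts, which a long transcript raises.

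**Figure D4:**
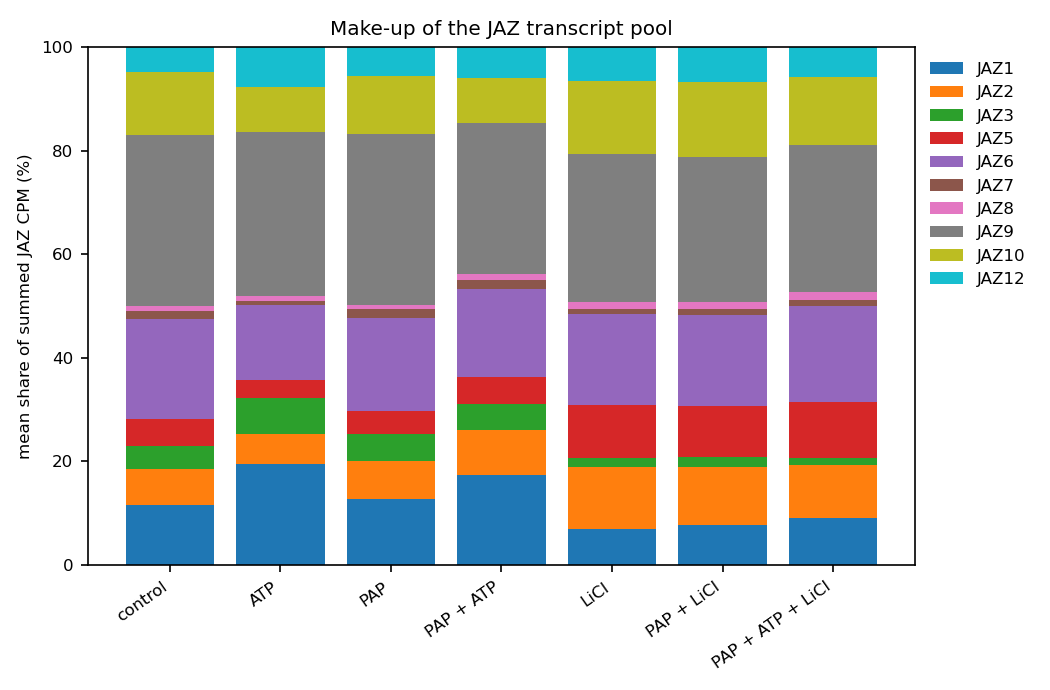
Mean share of the summed CPM of the 10 JAZ genes held by each gene (vertical axis, percent), by feeding group (3 libraries each, errors of the named shares in the text). JAZ5 and JAZ2 take more, and JAZ1 and JAZ3 less, of the pool in the 3 LiCl groups than in control.

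In limma and edgeR no member passed the threshold in any comparison of ATP or PAP, while DESeq2 called JAZ1 in 2 of the ATP comparisons. With ATP against control 0 of 10 were called, beside 7.26% of all genes (964 lower and 319 higher), and edgeR and DESeq2 also called 0. JAZ5, JAZ6, JAZ7 and JAZ10 had an unadjusted p under 0.05, as did 24.2% of all genes. JAZ5 had a log2 value of -0.95 ± 0.29 (adjusted p = 0.0565) and JAZ6 one of -0.89 ± 0.30 (adjusted p = 0.0753), JAZ6 standing at 1852, 1632 and 1121 CPM in control and 993, 1090.0 and 489 CPM with ATP. The median of the 10 was -0.66, beside -0.16 for all genes. After median-of-ratios scaling these were -0.44 and 0.04.

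Single libraries weighed on these values in both directions. ATP library 6 was the lowest of its 3 for 10 of 10 members, while it was lowest for 29.1% of all genes. JAZ7 stood at 72.3, 86.4 and 19.7 CPM in the ATP libraries and JAZ10 at 703, 697 and 221 CPM, the last of each being library 6. Without it the median change of the members with ATP was -0.21, beside -0.23 for all genes. Control library 3 was the lowest of its group for 8 of 10 members (32.1% of all genes), and without it the median was -0.95 and JAZ5 (-1.17, adjusted p = 0.0382) and JAZ6 (-1.10, 0.0482) were called. JAZ5 was also called without PAP library 8 or 9 (adjusted p = 0.0449 and 0.0374), with its change of -0.95 as before. Similarly, library 8 of the PAP group was the lowest for 9 of 10 members (31.0% of all genes), with JAZ8 at 45.2, 17.5 and 123 CPM. The members' median SD within a group, on the log2 scale, was 0.68 for ATP, 0.47 for control and 0.44 for PAP, beside 0.31, 0.40 and 0.37 for all genes. In the LiCl, PAP + ATP and PAP + ATP + LiCl groups it was 0.17, 0.24 and 0.15, beside 0.25, 0.32 and 0.26, and in the PAP + LiCl group 0.29, beside 0.26. The cause of this shared spread was not tested.

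With PAP against control 0 of 10 members were called and 0.0% of all genes were, and no member had an unadjusted p under 0.05 (edgeR and DESeq2 0). All 10 values were negative, with a median of -0.35, but without PAP library 8 the median was -0.02 with 5 of 10 positive. It was -0.15 without control library 1 and -0.57 without control library 3. After median-of-ratios scaling 1 of 10 was positive. PAP added to LiCl gave 0 of 10 called, 0.0% of all genes and no member at an unadjusted p under 0.05, with edgeR and DESeq2 at 0. PAP added to ATP also gave 0 of 10 (0.0% of all genes, edgeR and DESeq2 0), with JAZ2, JAZ5, JAZ6 and JAZ7 at an unadjusted p under 0.05, beside 10.7% of all genes. The JAZ5 value there was 1.11 ± 0.29 (adjusted p = 0.273) and the JAZ7 value 1.62 ± 0.57 (0.351). All 10 values were positive, with a median of 0.73, and without ATP library 6 the median was 0.35 with 8 of 10 positive.

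ATP added to PAP gave 0 of 10 members called, beside 6.86% of all genes. JAZ1 had the largest value, 0.84 ± 0.29 (adjusted p = 0.0802), going from 914, 647 and 879.7 CPM with PAP to 1975, 1379 and 1105 CPM with PAP + ATP. DESeq2 called it and edgeR did not. All 10 values were positive, with a median of 0.56, which was 0.23 with 8 of 10 positive without PAP library 8. ATP added to PAP + LiCl gave 0 of 10 called, beside 0.113% of all genes, and 0 in edgeR and DESeq2. There 0 members had an unadjusted p under 0.05, beside 7.19% of all genes. The interaction of ATP with PAP was called for 0 of 10 members and 0.0% of genes (edgeR and DESeq2 0), with 4 members at an unadjusted p under 0.05, beside 12.4% of all genes. These comparisons share the ATP, the PAP or the PAP + ATP libraries, so their directions are not independent.

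**Figure D5:**
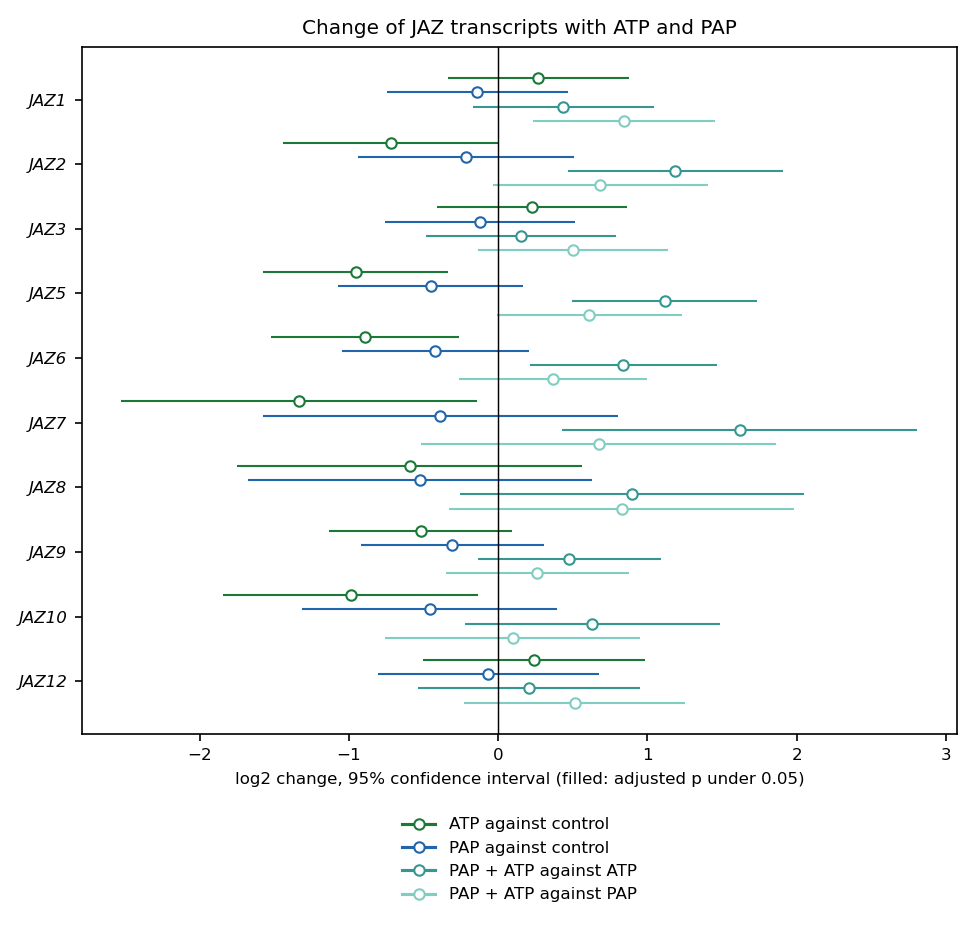
Log2 change of each JAZ gene with ATP and with PAP (horizontal axis, limma estimate with 95% confidence interval) in 4 comparisons that share libraries. All points are open, since none had an adjusted p under 0.05.

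Averaged over 3 settings, PAP gave 0 of 10 members called (0.0% of genes, 0 at an unadjusted p under 0.05, edgeR and DESeq2 0). ATP gave 0 of 10 in limma and edgeR and 1 in DESeq2, beside 15.1% of genes, with JAZ1 at 0.42 ± 0.17 (adjusted p = 0.0923). In a test of any difference among the 7 groups, 4 of 10 members passed, JAZ1, JAZ2, JAZ3 and JAZ5, beside 35.6% of genes.

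Of the other genes of the TIFY family, JAZ4, JAZ11 and JAZ13 (AT3G22275) are the remaining JAZ genes. JAZ13 carries no symbol in the reference used, so it was left out of the tests of this list. It stood at 144 to 390 CPM with LiCl and 6.62 to 224 CPM without. JAZ4 was blank in the control and PAP groups and at most 0.334 CPM elsewhere, and JAZ11 stood at 6.42 to 23.2 CPM. Of the 6 loci tested, JAZ13 not among them, 0 were called in any of the 3 separate LiCl comparisons. In the pooled LiCl comparison TIFY8 rose (0.51 ± 0.14, adjusted p = 0.0061) and JAZ11 fell (-0.54 ± 0.20, adjusted p = 0.0353). The JAZ11 call was lost under 13 of 30 alternatives.

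Genes of the pathway in which JAZ proteins act were followed in 4 lists. In the perception and transcription list (12 genes), 4 fell with ATP against control and 0 rose: MYC2 (-1.19 ± 0.27, adjusted p = 0.0151), its relatives MYC3 (-1.08 ± 0.30, 0.0378) and MYC4 (-2.45 ± 0.41, 0.00439), and JAM3, a repressor of the same bHLH family (-0.99 ± 0.18, 0.00695). Of all genes, 7.26% were called in that comparison (964 lower and 319 higher). The MYC4 call held under all 30 alternatives. MYC2 missed the threshold under 4 of 30. Among these were median-of-ratios scaling (-0.97, adjusted p = 0.0737), TMM scaling (-1.02, 0.0566) and edgeR (-0.91, 0.0837). Over all 30 its change ran from -1.43 to -0.81, with an adjusted p of at most 0.183. JAM3 missed the threshold under 1 of 30, with an adjusted p of at most 0.121. MYC3 missed it under 10 of 30, among them the absence of ATP library 6 (-0.68, adjusted p = 0.128). MYC2 went from 936 to 1088 CPM in control to 255 to 609.5 CPM with ATP. TPL rose with ATP in PAP-fed leaves (1.39 ± 0.37, adjusted p = 0.0342), and MED25, the Mediator subunit that binds MYC2, rose with LiCl in PAP-fed leaves (1.15 ± 0.38, adjusted p = 0.0368). Each was 1 of 12 called, beside 6.86% and 21.6% of all genes, and missed the threshold under 6 of 30 alternatives. In the pooled ATP comparison TPL rose (0.90, adjusted p = 0.0114) and MYC4 fell (-1.32, 0.00298), beside 15.1% of all genes called. With LiCl pooled, MED25 (0.78, adjusted p = 0.00846) and TPL (0.59, 0.0333) rose and HDA6 fell (-0.37, 0.00743), beside 41.6%. These pooled calls held under all 30 alternatives, except TPL with LiCl, lost under 9. COI1 was at -0.35 ± 0.23 with LiCl against control (adjusted p = 0.302).

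The turnover list held 10 genes, of which 6 were tested. JOX2, JOX3 and JOX4 had values but were left out because their symbols did not match the reference. JOX2 stood at 451 to 1321 CPM with LiCl and 1181 to 1577 CPM without. Of the 6 tested genes, 2 fell and 0 rose in each of the 3 LiCl comparisons, beside 10.4%, 12.0% and 4.84% of all genes lower. They were CYP94B3, which oxidises jasmonoyl-isoleucine (-3.27 ± 0.35, -2.86 ± 0.35 and -2.37 ± 0.35 in buffer, with PAP and with PAP + ATP), and ST2A, a hydroxyjasmonate sulfotransferase that uses PAPS and releases PAP (-3.76 ± 0.72, -4.11 ± 0.72 and -2.81 ± 0.72). CYP94B3 stood at 955 to 1601 CPM in control and 75.7 to 183 CPM with LiCl. In the synthesis list (13 genes) 1, 1 and 2 fell and 0 rose, beside the same 3 shares of all genes. AOC2, an allene oxide cyclase gene, fell in all 3 (-1.32 ± 0.32, -1.14 ± 0.32 and -1.24 ± 0.32), and LOX2 fell in PAP + ATP-fed leaves (-1.26 ± 0.32). The adjusted p of CYP94B3 was at most 0.0108 over the 30 alternatives of each comparison, while AOC2 missed the threshold under 2, 3 and 4 of them, ST2A under 4 in PAP + ATP-fed leaves and LOX2 under 4. Over the 3 settings pooled, 4 of 13 fell and 3 rose, beside 21.5% of all genes lower and 20.1% higher. AOC2 fell by 1.24 and kept its call throughout, and LOX2 (-0.86), AOS (-0.68) and JAR1 (-0.36) fell. The lipoxygenase genes LOX3 (0.41 ± 0.15, adjusted p = 0.0378), LOX4 (0.84 ± 0.29, 0.0271) and LOX6 (0.69 ± 0.24, 0.0295) rose. The calls of these 3 were lost under 14, 6 and 5 of 30 alternatives, and that of JAR1 under 6, among them median-of-ratios scaling (-0.35, adjusted p = 0.0662).

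In the response list 5 of 11 genes fell and 0 rose with LiCl against control: the storage protein genes VSP1 (-3.47 ± 0.91, adjusted p = 0.0149) and VSP2 (-2.54 ± 0.83, 0.0432), CORI3 (-1.31 ± 0.40, 0.0327), NAC019 (-2.01 ± 0.55, 0.0187) and ORA59 (-1.51 ± 0.42, 0.0247). In PAP-fed leaves 3 of 10 fell and in PAP + ATP-fed leaves 2 of 9, with 0 rising in either. Of all genes, 10.4%, 12.0% and 4.84% were called lower in these 3 comparisons. The median of the list was -1.30, -0.89 and -1.41, beside -0.03, -0.02 and 0.07 over all genes. The VSP2 call against control was lost under 12 of 30 alternatives, and those of VSP1, CORI3, NAC019 and ORA59 under 3 to 5 of 27 or 30. In the pooled comparison VSP1 (-2.95, adjusted p = 0.00028), VSP2 (-2.29, 0.00107), CORI3 (-1.52, 6e-05) and NAC019 (-1.80, 0.00025) fell and kept their calls. The chlorophyllase gene CLH1 also fell (-0.90 ± 0.27, adjusted p = 0.0123), which made 5 of 9 genes, beside 21.5% of all genes lower. ERF1, an ethylene and jasmonate response factor gene, rose (1.08 ± 0.31, adjusted p = 0.0102), and its call was lost under 1 of 29 alternatives.

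Over 12701 genes, r was taken with the mean standardised log2 level of the 10 members across 21 libraries. The members and all genes of the TIFY, pathway and marker lists were left out of the ranking. The closest of the remaining genes were FAMT (r = 0.95), a farnesoic acid methyltransferase gene, AT5G28237 (0.94), AT3G22160 (0.90), BBX13 (0.89) and AT5G66650 (0.89). For FAMT, r was 0.91 within the 9 LiCl libraries and 0.96 within the other 12. With median-of-ratios scaling 3 of these 5 stayed among the closest 5. For single members, only the 10 members were left out of the ranking. For JAZ10 the closest gene was JAZ13 (AT3G22275, r = 0.95), itself a JAZ gene outside the 10 members. JAZ13 stood at 144 to 390 CPM with LiCl and 6.62 to 224 CPM without. It was also the closest to JAZ6 (r = 0.94), where median-of-ratios scaling gave MYC3 (0.93). These correlations describe libraries that share groups and depth.

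Reads from neighbours could reach the counts of some members, as the library kit does not keep the strand. JAZ12 overlaps AIP2 on the opposite strand (mean 18.6 CPM, against 480.2 CPM for JAZ12), and JAZ10 and JAZ12 overlap annotated antisense RNAs, whose reads cannot be told apart from theirs. UBP1B starts 11 bases past the end of JAZ5 on the same strand, and it rose with LiCl in the pooled comparison too (0.75 ± 0.12, adjusted p = 0.00014), at a mean of 63.8 CPM against 565 CPM for JAZ5. EDA25 starts 32 bases past the end of JAZ6 and rose by 1.52 ± 0.29 (adjusted p = 0.00049), and AT1G19190 starts 154 bases past the end of JAZ1 and rose by 1.27 ± 0.34 (adjusted p = 0.00696) while JAZ1 fell. Whether these changes share RNA molecules with the JAZ genes was not tested.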

How the data were processed

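Messenger RNA of 21 libraries, 3 in each of 7 feeding groups, was read from 1 table. The values deposited by the authors are CPM per the labels. The submitters' processing notes name Subread, featureCounts and the build TAIR10, with versions not given in the sources used here. Each value was a whole number of reads (100.0%, tolerance 1e-06), so reads were recovered, with library totals of 19190821 to 27155547. Columns name the group but no replicate.

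Group means of log2(CPM + 0.5) were fitted with limma 3.58.1 (R 4.3.3, intensity trend) for the 17794 loci that reached 1 CPM in 3 or more libraries. A locus blank in a group has no test there. Two-sided p-values were adjusted (Benjamini-Hochberg) over every gene tested in that comparison, with a threshold of 0.05. Changes of low genes are understated on this scale. Alternatives were pseudocounts of 0.1 and 2, no filter, a filter on mean CPM (5 or more), median-of-ratios and TMM scaling, a fit of the compared groups alone, each library left out, and, on recovered reads, the quasi-likelihood test of edgeR 4.0.16 and the test of DESeq2 1.42.0. The fit was tested on simulated data.

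The members, gene lists and tests were chosen with earlier results of these data known. Named were all 10 members, other TIFY loci, up to 4 genes of smallest p per pathway list and comparison, any perception gene, the 5 genes of most similar pattern outside the lists, and neighbours. VSP2 in the comparison of LiCl with control, ERF1, CLH1, LOX3, LOX6, JAR1 and CER6 were named beyond this rule after their values were seen. Promoters came from RefSeq TAIR10.1, and the promoter of 1 member is not reported here.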

Additional observations from a re-analysis of the deposited data

How the results depend on the processing

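Of the called changes, 0 of 273 values with a library left out and 0 of 117 under other alternatives changed sign. Among uncalled changes, 88 of 2877 and 17 of 1233 did. These counts are a weak check of direction. Leaving out a library outside a comparison does not alter its estimate, and called changes were selected for lying far from 0 beside their errors. The calls of JAZ5 in PAP-fed leaves and JAZ3 in PAP + ATP-fed leaves, and the pooled calls of JAZ1, JAZ2, JAZ3 and JAZ5, held under every alternative run. With only the compared groups in the fit, which leaves fewer libraries to estimate the spread, the members called fell from 2 to 0 for LiCl against control (JAZ5 adjusted p = 0.0578, JAZ3 0.0675) and from 3 to 1 for LiCl in PAP-fed leaves. DESeq2 called 1 member, where limma called 0, for ATP in PAP-fed leaves and 1 for the pooled ATP effect. The cause was not tested. Leaving out each library in turn gave 1 to 3 called members for LiCl against control, 1 to 4 in PAP-fed leaves, 1 to 3 in PAP + ATP-fed leaves, 4 to 6 for the pooled LiCl effect and 3 to 6 for any difference among groups. For ATP the counts were 0 to 2 against control (2 without control library 3, 1 without PAP library 8 or 9), 0 to 1 in PAP-fed leaves and 0 to 1 pooled. For PAP, for ATP in PAP + LiCl-fed leaves and for the interactions they were 0 to 0. JAZ5 in PAP + ATP-fed leaves lost its call without any 1 of 11 libraries (adjusted p = 0.051 to 0.145). JAZ3 in PAP-fed leaves lost it without PAP library 7 (-0.72, adjusted p = 0.143) or 8, or PAP + LiCl library 14 or 15 (-0.75, adjusted p = 0.15). No paired analysis was possible because the columns carry no replicate number that could be matched across groups. Depth was not a limit for the members, which had at least 422 reads in each library.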
